A study of Homo sapiens with 12 samples.

Results

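The genes of cholesterol and fatty acid synthesis were examined in OCI-Ly7, an established human cell line from a diffuse large B-cell lymphoma. They are 35 genes, grouped by their known roles in these pathways, out of 78892 genes in the count table. They comprise 8 enzymes of the early mevalonate pathway, 11 enzymes from squalene to cholesterol, 5 genes that control the sterol regulatory element-binding proteins (SREBPs), 2 sterol carriers, 3 genes under the liver X receptors (LXRs) and 6 enzymes of fatty acid synthesis. All 35 were found and all passed the filter on low counts.

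Polyadenylated RNA was sequenced on day 5 from 4 groups of 3 libraries. The combination group received 5-azacitidine at 100 nM on each day from day 0 to day 4 and an HDAC3 inhibitor at 15 µM on days 2 and 4. The inhibitor group received the inhibitor alone, the 5-azacitidine group received that drug alone, and the vehicle group received neither. HDAC3 removes acetyl groups from histones as the enzyme of nuclear receptor co-repressors. 5-azacitidine, an analogue of cytidine, traps DNA methyltransferases once built into DNA. The labels give no name for the inhibitor. All libraries come from 1 cell line, and the labels do not say whether replicates were separate cultures, so p-values measure only how far these libraries vary, which may be technical variation.

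Cells make cholesterol from acetyl-CoA through mevalonate, the isoprenoid diphosphates, squalene and lanosterol, and make fatty acids from the same acetyl-CoA. When sterols in the endoplasmic reticulum run low, SCAP carries the SREBPs to the Golgi, where they are cut, and the released part switches on the enzymes of both routes; when sterols are plentiful, the INSIG proteins hold SCAP back. LXRs respond to oxidised sterols by switching on the pumps that remove cholesterol from the cell, and without ligand they can hold co-repressors at their targets. Dividing lymphoma cells need both lipids for membranes.

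The libraries held 35947840 to 36337051 counts, and levels are given as counts scaled to 1000000 per library (CPM). Together the 35 genes took 0.385% to 0.471% of the counts. The 8 B-cell markers all had counts, with summed levels of 8507 to 8972 CPM in the combination, 8190 to 8356 CPM with the inhibitor, 5986 to 6047 CPM with 5-azacitidine and 5614 to 5847 CPM in vehicle. Adipocyte and hepatocyte markers, from tissues that make much lipid, summed to at most 0.193 CPM in any library, with ADIPOQ and TTR at 0 counts in all. T-cell markers summed to 11.6 to 13.4 CPM in the combination, 6.92 to 7.94 CPM with the inhibitor, 1.34 to 1.91 CPM with 5-azacitidine and 0.939 to 1.28 CPM in vehicle, with CD8A at 0 throughout. The 4 NK-cell markers all had counts and summed to 11.1 to 12.9 CPM in the combination, 9.99 to 11.1 CPM with the inhibitor, 4.41 to 6.18 CPM with 5-azacitidine and 3.84 to 4.93 CPM in vehicle. Of 6 monocyte and granulocyte markers 5 had counts, S100A8 being at 0 throughout, with sums of 2.59 to 3.35 CPM in the combination, 1.41 to 2.02 CPM with the inhibitor, 0.139 to 0.389 CPM with 5-azacitidine and 0.332 to 0.497 CPM in vehicle. Of 3 fibroblast markers COL1A2 was at 0 throughout, and the sums were 5.06 to 7.39 CPM in the combination, 2.66 to 3.31 CPM with the inhibitor, 0.166 to 0.221 CPM with 5-azacitidine and 0 to 0.166 CPM in vehicle. The 4 germinal-centre markers summed to 393 to 432 CPM in the combination, 358 to 362 CPM with the inhibitor, 401 to 414 CPM with 5-azacitidine and 395 to 406 CPM in vehicle. Mitochondrial transcripts took 12.5% to 15.3% of counts in the combination, 12.14% to 13.02% with the inhibitor, 10.0% to 13.8% with 5-azacitidine and 9.59% to 10.5% in vehicle, so every library with the inhibitor was above every vehicle library. Combination replicate 3 was the highest, followed by 5-azacitidine replicate 1. The part of these marker groups and of the mitochondrial share in the results was not tested. In these bulk samples, fewer cells with a transcript and less of it per cell cannot be told apart.

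Most genes of sterol synthesis were higher in the combination than in vehicle. Of the 35 genes, 21 rose and 4 fell, at an adjusted p under 0.05 in the edgeR quasi-likelihood test, which is the test used throughout. Numbers in parentheses after a log2 fold change are adjusted p-values. Of all 17869 genes tested, 29.6% rose and 27.5% fell, so the share of the 35 that rose, 60.0%, was above the background and the share that fell, 11.4%, below it. Among the 10382 genes that reached 5 CPM in at least 3 libraries, fitted separately, the shares were 32.5% and 34.3%. The 35 genes had a median log2 fold change of 0.26, against 0.01 for all genes.

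The single drugs moved fewer of them. With the inhibitor against vehicle, 12 rose and 7 fell, beside 26.4% and 24.9% of all genes (29.1% and 30% of genes that reached 5 CPM), and the median log2 fold change was 0.11; these shares, 34.3% and 20.0%, are near the background. With 5-azacitidine against vehicle, 6 rose and 5 fell, beside 4.31% and 4.75% of all genes (7.71% and 8.19% of genes that reached 5 CPM), with a median of -0.02. The count of 5 fell to 2 without vehicle replicate 1, vehicle replicate 3 or 5-azacitidine replicate 2. It was 3 without vehicle replicate 2, 5-azacitidine replicate 1 or any inhibitor replicate. These comparisons share the vehicle libraries.

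The combination was then set against each drug alone. Against 5-azacitidine, 20 of the 35 genes rose and 4 fell, beside 28.7% and 25.1% of all genes, with a median log2 fold change of 0.23. Against the inhibitor, 13 rose and 1 fell, beside 4.51% and 2.83% of all genes, with a median of 0.15. Of genes that reached 5 CPM, 7.51% rose and 5.25% fell against the inhibitor. The 1 gene that fell, ACACA, was no longer called without any 1 of 10 libraries, given with its values, and ABCA1 joined it without combination replicate 3.

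**Figure D1:**
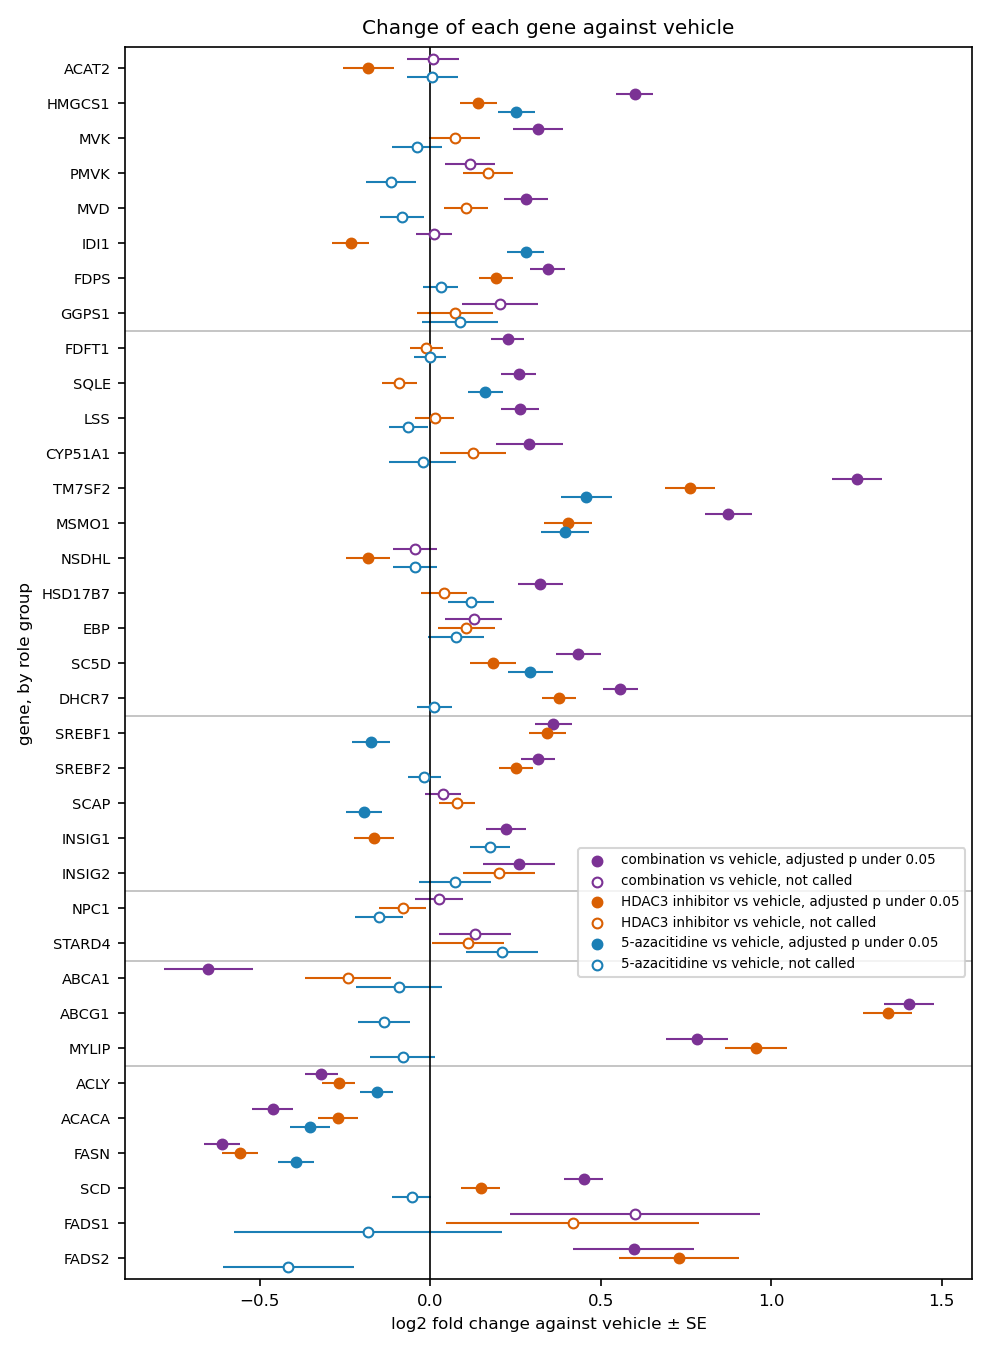
Log2 fold change (± SE) of each of the 35 genes against vehicle, in the combination, with the inhibitor and with 5-azacitidine, ordered by role. In the combination 21 genes rose and 4 fell; ABCG1 had the largest rise, 1.40, and FASN, ACACA, ACLY and ABCA1 fell.

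Of the 19 enzymes of the sterol pathway, none was called lower in the combination against vehicle. Against vehicle 13 rose and 0 fell, by edgeR as by DESeq2 and limma voom, and 0 were lower at an unadjusted p under 0.05. The 13 are 68.4% of the 19, beside 29.6% of all genes that rose and 27.5% that fell. Of the 19 fold changes 18 were positive, with a median log2 fold change of 0.28. With 5-azacitidine 6 rose and 0 fell, again 0 lower at an unadjusted p under 0.05 and 0 by the other tools, with a median of 0.03. The 6 are 31.6%, beside 4.31% of all genes that rose and 4.75% that fell. With the inhibitor 6 rose and 3 fell, with a median of 0.11. These are 31.6% and 15.8%, beside 26.4% and 24.9% of all genes, so in this fit the share that rose was near the background. That reading depends on the filter. In the separate fit at 5 CPM, PMVK and MVD were also called higher, and ACAT2 and NSDHL were no longer called lower. Of all genes in that fit, 29.1% rose and 30% fell. Against the inhibitor alone, 11 of the 19 rose in the combination and 0 fell, with a median of 0.24. There, 0 were lower at an unadjusted p under 0.05, and 0 by DESeq2 or limma voom. The 11 are 57.9%, beside 4.51% of all genes that rose and 2.83% that fell. Against 5-azacitidine alone, 12 rose in the combination and 1, IDI1, fell, with a median of 0.23. These are 63.2% and 5.26%, beside 28.7% and 25.1% of all genes.

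**Figure D2:**
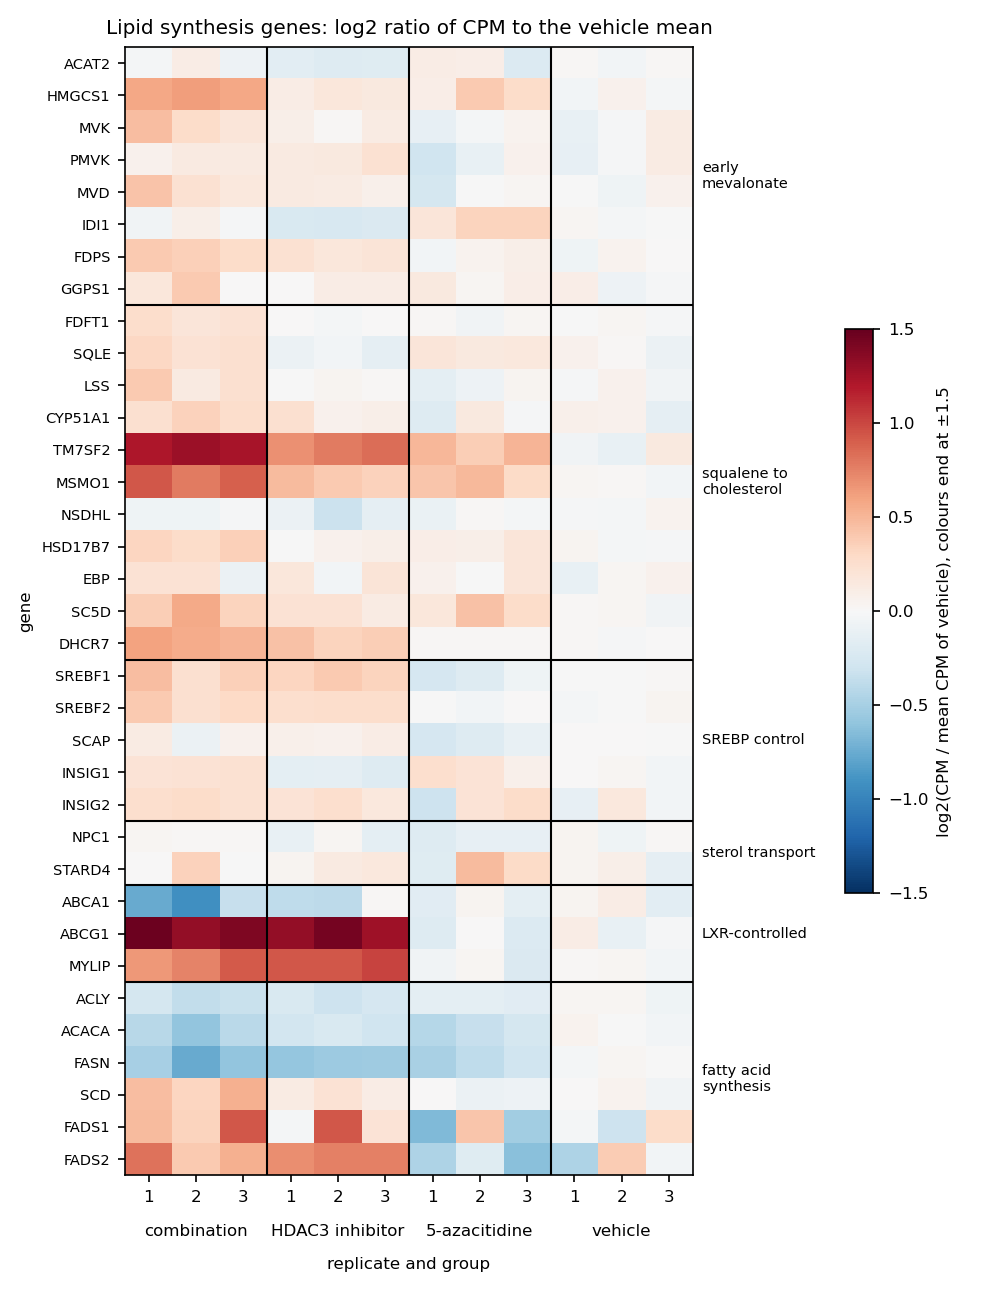
Level of each of the 35 genes in every library, as log2 of its CPM over the vehicle mean, with genes grouped by role and libraries by group. The 3 combination columns are above vehicle for most sterol enzymes, and FASN, ACACA and ACLY are below it in the columns of all 3 drug groups.

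The early mevalonate enzymes turn acetyl-CoA into the isoprenoid building blocks. Of the 8, 4 rose in the combination (HMGCS1, MVK, MVD and FDPS), 2 rose and 2 fell with the inhibitor, and 2 rose with 5-azacitidine. HMGCS1, the hydroxymethylglutaryl-CoA synthase and an SREBP target (chromosome 5, 43287470 to 43313512, GRCh38, minus strand), had 304, 313 and 303 CPM in the combination, 219.6, 229 and 225 with the inhibitor, 217, 266 and 246 with 5-azacitidine and 197, 212 and 199 in vehicle. Every combination library was above every other library. The log2 fold change was 0.60 ± 0.05 (SE, adjusted p = 3.77e-10) in the combination, 0.14 ± 0.05 (0.0321) with the inhibitor and 0.25 ± 0.05 (0.00283) with 5-azacitidine. Against the inhibitor alone the combination was higher by 0.46 ± 0.05 (adjusted p = 6.14e-06). The call in the inhibitor group did not hold without vehicle replicate 1 or 3 or any inhibitor replicate, with adjusted p from 0.0510 to 0.137.

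IDI1, the isomerase of isopentenyl diphosphate, moved in opposite directions with the 2 drugs. It had 111, 123 and 114 CPM in the combination, 98.6, 98.1 and 98.9 with the inhibitor, 131, 145 and 146 with 5-azacitidine and 118, 113 and 115 in vehicle. The inhibitor libraries were all below vehicle and the 5-azacitidine libraries all above it, while the combination overlapped vehicle. The log2 fold change against vehicle was 0.01 ± 0.05 (SE, adjusted p = 0.877) in the combination, -0.23 ± 0.05 (0.000736) with the inhibitor and 0.28 ± 0.05 (0.000983) with 5-azacitidine. The difference of the combination from 5-azacitidine was -0.27 ± 0.05 (adjusted p = 0.000126) and from the inhibitor 0.24 ± 0.05 (0.00527).

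MVK (mevalonate kinase) and MVD (the decarboxylase that makes isopentenyl diphosphate) were called against vehicle in the combination, by 0.32 ± 0.07 and 0.28 ± 0.06 on the log2 scale (adjusted p = 0.000569 and 0.000468), and in neither single drug. With the inhibitor MVD had 0.11 (0.179), and it was called there with the 5 CPM filter and with only the groups compared (0.0202 and 0.0197). Those settings moved the log2 fold changes of all shared genes up with the inhibitor, by medians of 0.07 and 0.03. The 5 CPM filter moved them up by a median of 0.08 in the combination against vehicle. Calls gained under these settings are to be read beside that shift. Set directly against the inhibitor, the combination had 0.24 ± 0.07 for MVK (0.0383) and 0.18 ± 0.06 for MVD (0.0931), and set against 5-azacitidine 0.35 ± 0.07 (0.000184) and 0.36 ± 0.06 (2.57e-05). The MVK call against the inhibitor was lost without any inhibitor replicate or combination replicate 1 (0.0781 to 0.198), with library totals only (0.0687) and with only the groups compared (0.0619). MVK averaged 36.7 ± 3.56 CPM in the combination, 31.2 ± 1.18 with the inhibitor, 28.9 ± 1.77 with 5-azacitidine and 29.5 ± 2.44 in vehicle (SD, n = 3 each). FDPS, which makes farnesyl diphosphate, rose by 0.34 ± 0.05 in the combination (1.43e-06) and by 0.19 ± 0.05 with the inhibitor (0.00201), against 0.03 ± 0.05 with 5-azacitidine (0.790). ACAT2, the thiolase of the first step, was -0.18 with the inhibitor (adjusted p = 0.0487), a call lost without vehicle replicate 1 or 3 or any inhibitor replicate (0.0750 to 0.135) and under DESeq2, DESeq2 size factors, limma voom and the 5 CPM filter (0.0551 to 0.228), and 0.01 in the combination (0.937). PMVK, which phosphorylates mevalonate phosphate, had 0.12 in the combination (0.183) and 0.17 with the inhibitor (0.0570), and passed the threshold in the combination without vehicle replicate 3 (0.0385) or with the 5 CPM filter (0.0228). With the inhibitor PMVK passed under 10 alternatives, among them DESeq2, DESeq2 size factors, the 5 CPM filter, only the groups compared and leaving out vehicle replicate 3, 5-azacitidine replicate 1 or combination replicate 2 (0.00672 to 0.0499 over the 10). GGPS1, which makes geranylgeranyl diphosphate, had 0.21 (0.118) in the combination and passed without combination replicate 3 (0.0457) or with the 5 CPM filter (0.0291).

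The enzymes from squalene to cholesterol held the 2 largest rises of the sterol pathway in the combination, those of TM7SF2 and MSMO1. Of the 11, 9 rose in the combination, 4 rose and 1 fell with the inhibitor, and 4 rose with 5-azacitidine. TM7SF2, a reductase of sterol intermediates after lanosterol (chromosome 11, 65111845 to 65116384, plus strand), had 65.1, 68.3 and 66.1 CPM in the combination, 45.0, 47.9 and 50.2 with the inhibitor, 39.5, 36.3 and 39.9 with 5-azacitidine and 26.9, 26.0 and 31.1 in vehicle. The 4 groups did not overlap: the combination was highest, then the inhibitor, then 5-azacitidine. The level in the combination was 2.38 times that in vehicle, a log2 fold change of 1.25 ± 0.07 (SE, adjusted p = 5.7e-14), beside 0.76 ± 0.07 (2.13e-09) with the inhibitor and 0.46 ± 0.07 (0.000145) with 5-azacitidine. The combination also exceeded 5-azacitidine by 0.79 ± 0.07 (4.47e-10) and the inhibitor by 0.49 ± 0.07 (6.73e-05).

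MSMO1, which removes methyl groups from sterol intermediates (chromosome 4, 165327667 to 165343164, plus strand), had 47.7, 42.9 and 46.5 CPM in the combination, 34.8, 32.9 and 31.9 with the inhibitor, 33.4, 35.1 and 30.4 with 5-azacitidine and 25.5, 25.2 and 24.3 in vehicle. The combination was highest and vehicle lowest, and the single drugs overlapped each other between them. Against vehicle its log2 fold change was 0.87 ± 0.07 (SE, adjusted p = 2.48e-11) in the combination, 0.40 ± 0.07 (2.21e-05) with the inhibitor and 0.40 ± 0.07 (0.000368) with 5-azacitidine. The combination exceeded 5-azacitidine by 0.48 ± 0.07 (1.08e-06) and the inhibitor by 0.47 ± 0.07 (6.5e-05).

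DHCR7, the reductase of the last step to cholesterol (chromosome 11, 71428193 to 71452868, minus strand), had 190.3, 184 and 178 CPM in the combination, 170.0, 158 and 163 with the inhibitor, 127, 127 and 127 with 5-azacitidine and 126, 124 and 126 in vehicle. Its 5-azacitidine libraries lay beside vehicle, and both groups with the inhibitor were higher. In log2 fold change it stood at 0.56 ± 0.05 (SE, adjusted p = 3.81e-10) in the combination, 0.38 ± 0.05 (5.53e-07) with the inhibitor and 0.01 ± 0.05 (0.925) with 5-azacitidine. The combination was higher than 5-azacitidine by 0.54 ± 0.05 (7.38e-10) and than the inhibitor by 0.18 ± 0.05 (0.0258), the second call being lost without inhibitor replicate 2 or 3 or combination replicate 1 (0.0743 to 0.147), without the low-count filter (0.0716) and with only the groups compared (0.0571).

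The other enzymes of this stretch moved less. FDFT1 (squalene synthase), LSS (lanosterol synthase), CYP51A1 (lanosterol demethylase) and HSD17B7 (a ketosteroid reductase) were called against vehicle in the combination and in neither single drug, by 0.23, 0.26, 0.29 and 0.32 on the log2 scale (adjusted p = 0.000217, 0.000249, 0.0118 and 0.000151). Set directly against the inhibitor, the combination had 0.24 (0.00245), 0.25 (0.00599), 0.17 (0.349) and 0.28 (0.00787) for the same genes. Set against 5-azacitidine it had 0.23 (0.000233), 0.33 (1.97e-05), 0.31 (0.00783) and 0.20 (0.0105). The HSD17B7 calls were lost against the inhibitor without inhibitor replicate 1 (0.0571) and against 5-azacitidine without 5-azacitidine replicate 2 or combination replicate 3 (0.0547 and 0.0595). SQLE (squalene epoxidase) rose by 0.26 ± 0.05 in the combination (9.1e-05) and by 0.16 ± 0.05 with 5-azacitidine (0.0461), the second call being lost without any 1 of the 9 vehicle, inhibitor and 5-azacitidine libraries (0.0563 to 0.200) or without the low-count filter (0.0908). SC5D, a desaturase, rose in the combination by 0.43 ± 0.07 (2.97e-06), with the inhibitor by 0.18 ± 0.07 (0.0226) and with 5-azacitidine by 0.29 ± 0.07 (0.00450). Its inhibitor call was lost without any vehicle replicate or inhibitor replicate 1 or 2 (0.0510 to 0.0857), and its 5-azacitidine call without 5-azacitidine replicate 2 (0.0541). NSDHL, a sterol dehydrogenase, was the 1 enzyme here that fell with the inhibitor, at -0.18 ± 0.06 (0.0188; 0.0919 and 0.171 without vehicle replicate 3 or inhibitor replicate 2, and 0.132 with the 5 CPM filter), and had -0.04 in the combination (0.579). EBP, a sterol isomerase, had 0.13 in the combination (0.199) and passed without combination replicate 3 (0.0367) or with the 5 CPM filter (0.0334). The CYP51A1 call against vehicle did not hold when vehicle replicate 3 was left out (adjusted p = 0.0700), and the call against 5-azacitidine did not hold with 5-azacitidine replicate 1 and combination replicate 3 left out together (0.0558). Of its exonic bases 74.1% lie in other genes too, where reads were not counted.

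**Figure D3:**
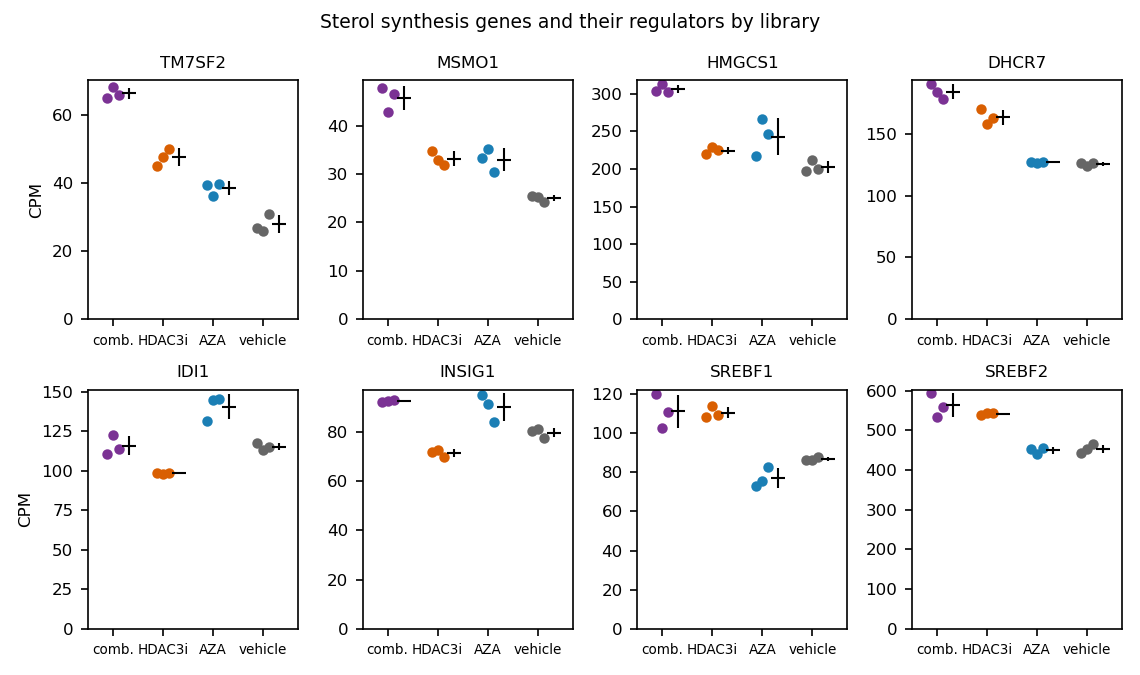
CPM in each library for 4 sterol enzymes and IDI1, INSIG1, SREBF1 and SREBF2, with points for libraries and crosses for the mean ± SD of 3. TM7SF2, MSMO1 and HMGCS1 are highest in the combination, IDI1 is highest with 5-azacitidine, and SREBF1 and SREBF2 are higher in both groups with the inhibitor.

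The genes that control the SREBPs split by drug. SREBF2, which encodes the SREBP mainly of cholesterol synthesis (chromosome 22, 41833105 to 41907306, plus strand), had 594, 534 and 559.6 CPM in the combination, 539, 544 and 543 with the inhibitor, 452, 439 and 456 with 5-azacitidine and 444, 452 and 465 in vehicle. Both groups with the inhibitor lay above the other two. Relative to vehicle the log2 change was 0.32 ± 0.05 (SE, adjusted p = 4.17e-06) in the combination, 0.25 ± 0.05 (0.000109) with the inhibitor and -0.02 ± 0.05 (0.894) with 5-azacitidine.

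SREBF1, which encodes the SREBP mainly of fatty acid synthesis, had 119.7, 103 and 111 CPM in the combination, 108, 114 and 109 with the inhibitor, 73.0, 75.7 and 82.8 with 5-azacitidine and 86.4, 86.1 and 87.8 in vehicle. Its 5-azacitidine libraries were the lowest and vehicle lay below both groups with the inhibitor. It was higher by 0.36 ± 0.05 (SE, adjusted p = 2.7e-06) in the combination and 0.34 ± 0.05 (7.62e-06) with the inhibitor. With 5-azacitidine it fell by 0.17 ± 0.06 (0.0463), a call lost without any vehicle or inhibitor replicate or 5-azacitidine replicate 1 or 2 (0.0627 to 0.182), with DESeq2 size factors (0.0614), with library totals only (0.0859) and without the low-count filter (0.0880). The count table sums all transcripts of a gene, so the forms of SREBF1 that start at different promoters are not separated.

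SCAP, the escort of the SREBPs, had 109, 94.0 and 105 CPM in the combination, 106, 105 and 109 with the inhibitor, 84.0, 87.5 and 92.5 with 5-azacitidine and 101, 101 and 99.7 in vehicle. The 5-azacitidine libraries were below all others. SCAP overlapped vehicle in the combination (0.04 ± 0.05 on the log2 scale, adjusted p = 0.584) and was 0.08 ± 0.05 with the inhibitor (0.215; 0.0138 with the 5 CPM filter, which also brought the combination to 0.0486, and 0.0291 with only the groups compared). With 5-azacitidine it fell by 0.19 ± 0.05 (0.0194), which was lost without vehicle replicate 1 or 3 or 5-azacitidine replicate 1 or 2 (0.0505 to 0.0861).

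INSIG1, itself an SREBP target and the brake on SCAP, had 92.1, 92.7 and 93.2 CPM in the combination, 71.8, 72.8 and 69.7 with the inhibitor, 95.1, 91.6 and 84.1 with 5-azacitidine and 80.3, 81.2 and 77.8 in vehicle. The inhibitor libraries were the lowest and the combination was above vehicle in every library. The log2 fold change was 0.22 ± 0.06 (SE, adjusted p = 0.00202) in the combination, -0.16 ± 0.06 (0.0218) with the inhibitor and 0.18 ± 0.06 (0.0571) with 5-azacitidine. The combination exceeded the inhibitor by 0.39 ± 0.06 (0.000114). The inhibitor call was lost without vehicle replicate 1 or inhibitor replicate 3 (0.0576 and 0.0849) and with the 5 CPM filter (0.177). The 5-azacitidine difference passed without 5-azacitidine replicate 3 or combination replicate 2 (0.0148 and 0.0411), and under DESeq2, DESeq2 size factors, library totals only and the 5 CPM filter (0.0236 to 0.0449). INSIG2, the related brake, had 13.1, 13.2 and 12.8 CPM in the combination, 12.6, 13.0 and 12.2 with the inhibitor, 8.80, 12.6 and 13.3 with 5-azacitidine and 10.0, 12.2 and 10.6 in vehicle. The combination libraries were above vehicle, and 5-azacitidine replicate 1 was the lowest of all. The log2 fold change in the combination was 0.26 ± 0.11 (adjusted p = 0.0369), a call lost without vehicle replicate 1 or 3 or any combination replicate (0.0512 to 0.166) or with library totals only (0.0615). With the inhibitor INSIG2 had 0.20 (0.112), which passed with the 5 CPM filter (0.0349) and with only the groups compared (0.0246).

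Promoter sequences are shown for SREBF2, MSMO1, TM7SF2, INSIG1, SCD and ABCA1, chosen to show an SREBP gene, a pair of sterol enzymes that rose, the SCAP brake, a desaturase that rose and a pump that fell, with 250 bases before the transcription start. They are RefSeq windows of GRCh38.p14, and a window ended 50 bases after the start for the motif counts. Capitals mark the sterol element TCACNCCAC and the CCAAT box, read on either strand (ATTGG on the other); the sequences run 5′ to 3′ on the gene's strand. The SREBF2 window is chr22:41832855-41833104 (plus), MSMO1 chr4:165327419-165327668 (plus), TM7SF2 chr11:65111622-65111871 (plus), INSIG1 chr7:155297628-155297877 (plus), SCD chr10:100346983-100347232 (plus) and ABCA1 chr9:104928156-104928405 (minus).
SREBF2: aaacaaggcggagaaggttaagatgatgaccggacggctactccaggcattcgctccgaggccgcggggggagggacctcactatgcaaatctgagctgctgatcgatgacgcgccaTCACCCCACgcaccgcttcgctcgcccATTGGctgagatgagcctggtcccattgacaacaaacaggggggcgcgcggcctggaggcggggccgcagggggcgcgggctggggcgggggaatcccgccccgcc
MSMO1: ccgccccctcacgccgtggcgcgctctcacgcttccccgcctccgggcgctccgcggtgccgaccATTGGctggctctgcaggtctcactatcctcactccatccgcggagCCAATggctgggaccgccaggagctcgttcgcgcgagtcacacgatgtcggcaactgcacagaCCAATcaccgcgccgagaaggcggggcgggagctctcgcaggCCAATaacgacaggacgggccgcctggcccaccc
TM7SF2: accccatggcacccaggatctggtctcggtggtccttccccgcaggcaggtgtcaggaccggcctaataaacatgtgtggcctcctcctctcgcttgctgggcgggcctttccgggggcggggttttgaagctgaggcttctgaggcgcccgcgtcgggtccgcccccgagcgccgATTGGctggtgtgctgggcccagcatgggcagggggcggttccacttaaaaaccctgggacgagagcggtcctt
INSIG1: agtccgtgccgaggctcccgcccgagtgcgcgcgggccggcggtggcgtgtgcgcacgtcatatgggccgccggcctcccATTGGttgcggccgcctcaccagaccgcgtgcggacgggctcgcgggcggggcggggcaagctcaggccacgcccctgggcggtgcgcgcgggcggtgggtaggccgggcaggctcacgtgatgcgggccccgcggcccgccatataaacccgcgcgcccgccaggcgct
SCD: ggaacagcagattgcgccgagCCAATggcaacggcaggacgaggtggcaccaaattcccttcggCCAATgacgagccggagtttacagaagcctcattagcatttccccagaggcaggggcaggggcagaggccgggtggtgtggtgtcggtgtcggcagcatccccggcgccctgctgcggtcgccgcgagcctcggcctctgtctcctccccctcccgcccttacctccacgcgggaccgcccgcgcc
ABCA1: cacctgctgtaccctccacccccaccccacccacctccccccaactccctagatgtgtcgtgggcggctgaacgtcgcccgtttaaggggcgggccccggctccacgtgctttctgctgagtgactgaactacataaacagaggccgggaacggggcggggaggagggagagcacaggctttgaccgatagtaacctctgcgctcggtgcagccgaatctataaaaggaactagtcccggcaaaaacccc
MSMO1 holds 4 CCAAT boxes, SCD 2, SREBF2, TM7SF2 and INSIG1 1 each and ABCA1 0. SREBF2 also holds the 1 exact match to TCACNCCAC found among the 30 of the 35 genes with a window. Sterol elements with other letters were not searched for. Windows were matched by symbol; FDFT1, SQLE, ABCG1, ACAT2 and FASN had no entry.

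Across those 30 genes, read on both strands, the CCAAT box was in 22 (73.3%, against 43.1% of the 11182 tested genes with a window and 39.7% of all 27305 genes). A gene was counted if any of its windows held the motif, and some genes had several windows. There were 35116 windows for the 27305 genes, and the shares were not matched for windows per gene. The GC box GGGCGG was in 29 (96.7%, against 73.9% of tested and 48.3% of all genes). The E-box CACGTG was in 5 (16.7%, against 12.3% and 8.77%). The strict sterol element was in 1.46% of tested genes. An exact match to the LXR repeat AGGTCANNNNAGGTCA was in 0 of the 30, and in 0.00894% of tested genes and 0.0256% of all. A single AGGTCA was in ACACA and DHCR7, against 13.7% of tested genes. The single AGGTCA lies inside the repeat; no other motif here contains another. These are exact matches of letters in a window and not sites of binding. No mismatch was allowed, so elements with other letters were missed. The counts therefore do not show that ABCA1 or another gene lacks an LXR or sterol element.

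The LXR-controlled genes went in different directions. ABCG1, a pump that moves cholesterol out of the cell (chromosome 21, 42199689 to 42304389, plus strand), had 65.8, 58.8 and 62.6 CPM in the combination, 59.0, 64.2 and 57.2 with the inhibitor, 20.7, 23.7 and 20.5 with 5-azacitidine and 25.6, 21.9 and 23.4 in vehicle. Both groups with the inhibitor were more than 50 CPM and both groups without it under 30. The level in the combination was 2.65 times that in vehicle, a log2 fold change of 1.40 ± 0.07 (SE, adjusted p = 3.49e-15), beside 1.34 ± 0.07 (1.56e-14) with the inhibitor and -0.13 ± 0.08 (0.308) with 5-azacitidine.

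MYLIP, a ubiquitin ligase that removes lipoprotein receptors, had 17.0, 18.1 and 20.5 CPM in the combination, 20.7, 20.7 and 21.8 with the inhibitor, 10.5, 11.0 and 9.29 with 5-azacitidine and 11.0, 11.0 and 10.5 in vehicle. It rose by 0.78 ± 0.09 (SE, adjusted p = 3.58e-08) in the combination and 0.96 ± 0.09 (1.39e-09) with the inhibitor, while 5-azacitidine overlapped vehicle (-0.08 ± 0.10, 0.695). In CPM every combination library lay just below every inhibitor library, but on the normalised scale of the test the groups overlapped. The difference, -0.17 ± 0.09, was not called (0.259).

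ABCA1, the pump that loads cholesterol on apolipoprotein, had 5.76, 5.12 and 7.62 CPM in the combination, 7.47, 7.43 and 9.85 with the inhibitor, 8.63, 9.98 and 8.82 with 5-azacitidine and 9.99, 10.5 and 8.70 in vehicle. The combination libraries were below vehicle and 5-azacitidine and overlapped the inhibitor. ABCA1 fell in the combination, with a log2 fold change of -0.65 ± 0.13 (SE, adjusted p = 0.000120) against vehicle and -0.56 ± 0.13 (0.000743) against 5-azacitidine. With the inhibitor it was -0.24 ± 0.13 (0.117), which passed without inhibitor replicate 3 (-0.39, adjusted p = 0.0212). The difference between the combination and the inhibitor, -0.41 ± 0.13 (0.0588), passed without combination replicate 3 (-0.60, 0.00785), under DESeq2 (-0.42, 0.0348) and without the low-count filter (-0.42, 0.0139).

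The sterol carriers were not called against vehicle in any group. NPC1, which exports cholesterol from lysosomes, averaged 25.9 ± 0.141 CPM in the combination, 24.2 ± 1.61 with the inhibitor, 23.1 ± 0.663 with 5-azacitidine and 25.5 ± 0.968 in vehicle (SD, n = 3 each). Its rise against 5-azacitidine, 0.18 ± 0.07 (adjusted p = 0.0345), was lost without 5-azacitidine replicate 2 or 3 or combination replicate 2 or 3 (0.0650 to 0.0863), without the low-count filter (0.117) and with only the groups compared (0.0578). STARD4, a carrier of free sterol, had 29.8, 37.7 and 29.7 CPM in the combination, 30.7, 32.6 and 33.3 with the inhibitor, 26.2, 41.2 and 36.4 with 5-azacitidine and 30.6, 31.6 and 27.0 in vehicle. In the 5-azacitidine group, replicate 1 was the low library, and without it that drug's fold change was 0.36 (adjusted p = 0.0165), against 0.21 ± 0.10 (0.242) with it.

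Fatty acid synthesis split between its first steps and its desaturase. FASN, the fatty acid synthase (chromosome 17, 82078338 to 82098294, minus strand), had 392, 328 and 369 CPM in the combination, 370.2, 380.0 and 384 with the inhibitor, 396, 424 and 451 with 5-azacitidine and 543, 568 and 553 in vehicle. Every drug library was below every vehicle library. Against vehicle its log2 fold change was -0.61 ± 0.05 (SE, adjusted p = 1.72e-10) in the combination, -0.56 ± 0.05 (1.46e-09) with the inhibitor and -0.39 ± 0.05 (1.2e-05) with 5-azacitidine. The combination was also lower than 5-azacitidine, at -0.22 ± 0.05 (0.00111), and overlapped the inhibitor (-0.05 ± 0.05, 0.648).

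ACACA, the acetyl-CoA carboxylase that commits acetyl-CoA to fatty acids, had 48.7, 43.5 and 49.5 CPM in the combination, 53.9, 55.8 and 53.1 with the inhibitor, 48.4, 51.2 and 54.4 with 5-azacitidine and 67.4, 65.1 and 63.3 in vehicle. Vehicle was above all other libraries. In log2 fold change it stood at -0.46 ± 0.06 (SE, adjusted p = 1.7e-07) in the combination, -0.27 ± 0.06 (0.000350) with the inhibitor and -0.35 ± 0.06 (0.000204) with 5-azacitidine. Against the inhibitor it fell by 0.19 ± 0.06 in the combination (0.0454), a call lost without any 1 of 10 libraries (0.0531 to 0.170) and held without 5-azacitidine replicate 1 or combination replicate 3. It was also lost with library totals only (0.0570), without the low-count filter (0.0703) and with only the groups compared (0.0503).

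ACLY, which makes cytosolic acetyl-CoA from citrate and so feeds both routes, had 330.1, 308 and 314 CPM in the combination, 339.9, 319 and 333 with the inhibitor, 358, 359 and 354 with 5-azacitidine and 405, 405 and 380.3 in vehicle. Vehicle was highest, 5-azacitidine next, and both groups with the inhibitor were lowest. ACLY fell in the combination, at -0.32 ± 0.05 on the log2 scale (SE, adjusted p = 2.96e-06), and with the inhibitor, at -0.27 ± 0.05 (4.35e-05). With 5-azacitidine it was -0.16 ± 0.05 (0.0405), a call lost without any 1 of 8 libraries (0.0539 to 0.162), namely each vehicle and inhibitor replicate and 5-azacitidine replicates 2 and 3. It was also lost with DESeq2 size factors (0.0604), without the low-count filter (0.0766) and with only the groups compared (0.0505).

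SCD, the desaturase that makes oleate (chromosome 10, 100347233 to 100364826, plus strand), had 699.9, 635 and 737 CPM in the combination, 551, 591 and 549.8 with the inhibitor, 511, 477 and 479.6 with 5-azacitidine and 508, 526 and 488 in vehicle. The combination was above all other libraries. Relative to vehicle the log2 change was 0.45 ± 0.06 (SE, adjusted p = 1.88e-07) in the combination, 0.15 ± 0.06 (0.0332) with the inhibitor and -0.05 ± 0.06 (0.648) with 5-azacitidine, and the combination exceeded the inhibitor by 0.30 ± 0.06 (0.00145). The inhibitor call was lost without any vehicle replicate or inhibitor replicate 1 or 2 (0.0509 to 0.169).

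FADS2, a desaturase of polyunsaturated fatty acids, was low, at 3.56 ± 0.535 CPM in the combination, 3.93 ± 0.0941 with the inhibitor, 1.77 ± 0.280 with 5-azacitidine and 2.36 ± 0.683 in vehicle (SD, n = 3 each). It rose by 0.60 ± 0.18 (adjusted p = 0.00521) in the combination, a call lost without vehicle replicate 1 (0.0570), and by 0.73 ± 0.18 (0.00101) with the inhibitor. FADS1, its neighbour on the opposite strand with overlapping exons, was under 1 CPM in every library and was not called against vehicle.

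**Figure D4:**
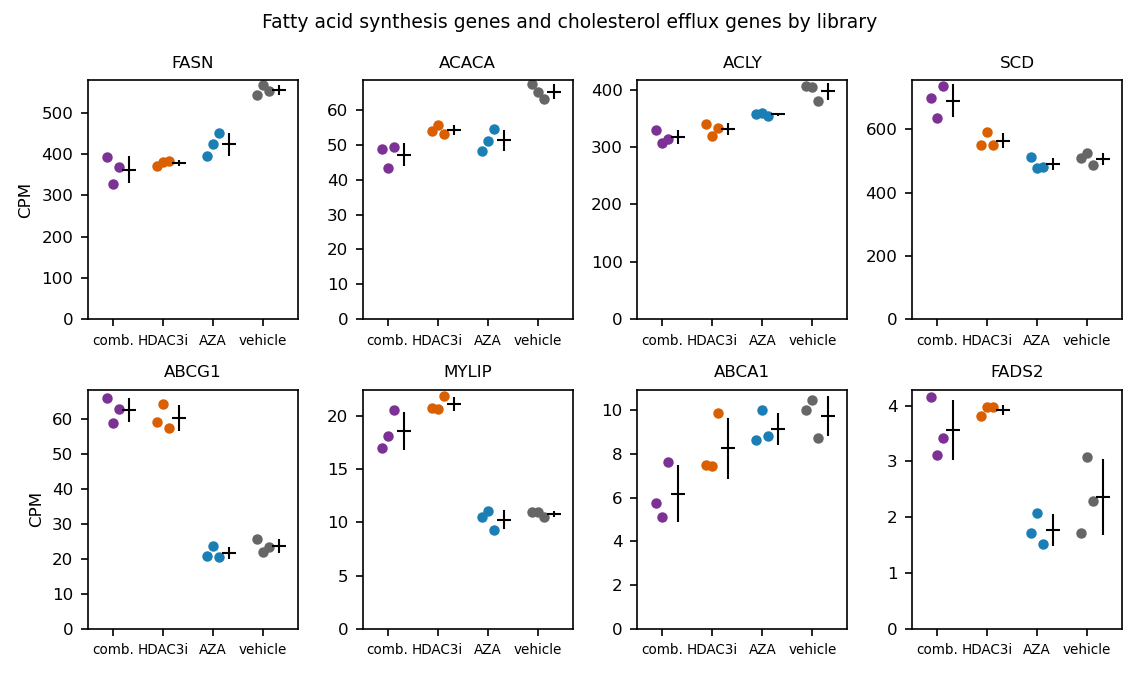
CPM in each library for fatty acid synthesis and LXR-controlled genes, with points for libraries and crosses for the mean ± SD of 3. FASN, ACACA and ACLY are highest in vehicle, SCD is highest in the combination, and ABCG1 and MYLIP are higher in both groups with the inhibitor.

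Per kilobase of exon, the most abundant transcripts in vehicle were SCD at 96.7, FDFT1 at 84.8, ACLY at 76.2, FASN at 59.5 and SREBF2 at 56.3 CPM per kilobase. ABCA1, FADS2 and FADS1 were the least abundant, at 0.857, 0.224 and 0.0469 CPM per kilobase. The level of a gene that shares exons with another is understated, since reads over more than 1 gene were not counted. That share of exonic bases was 74.1% for CYP51A1, 41.0% for GGPS1, 37.7% for HMGCS1, 36.4% for EBP and 22.2% for ACAT2, and 12 of the 35 genes shared none. Counting took no account of strand, so any read from the other strand over a gene's unshared exons was counted as its own. Outside the shared bases no other gene has an annotated exon, and the number of such reads was not measured.

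Whether 5-azacitidine acted differently with the inhibitor present was tested by the interaction, the difference between the combination and the inhibitor minus that between 5-azacitidine and vehicle. SCD and FASN were called, with 0.36 ± 0.08 (adjusted p = 0.0338) and 0.34 ± 0.07 (0.0250) on the log2 scale (SE). For SCD the change with 5-azacitidine was 0.30 in cells with the inhibitor and -0.05 in cells without it. For FASN it was -0.05 with the inhibitor and -0.39 without it. The SCD call was lost without any 1 of 10 libraries (0.0548 to 0.124), all but 5-azacitidine replicate 1 and combination replicate 2, and the FASN call without any 1 of 9 (0.0565 to 0.0923), all but 5-azacitidine replicates 1 and 3 and combination replicate 2. The FASN call was also lost with library totals only (0.0608) and with 5-azacitidine replicate 1 and combination replicate 3 left out together (0.0653).

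Of all genes tested, 0.263% had a positive interaction called and 0.453% a negative one. The 35 genes had 2 and 0 by edgeR, 4 and 0 by DESeq2 and 2 and 0 by limma voom, and at an unadjusted p under 0.05 there were 12 positive and 0 negative. The share of all genes at that unadjusted p was not counted, so the 12 cannot be set against a background. The interaction was positive in 28 of the 35 (80.0%), against 52.5% of all genes, with a median of 0.17 against 0.01. All these interactions come from the same libraries, so their signs are not independent of each other. For the sterol enzymes none was called, and DESeq2 called 2 (FDFT1 and LSS). At an unadjusted p under 0.05, 7 of 19 were positive, again without a share of all genes beside it. Without combination replicate 2, edgeR called 4 of the 35, among them LSS at 0.36 (adjusted p = 0.00569). The count was 1 without 5-azacitidine replicate 3 and 0 without any vehicle or inhibitor replicate, 5-azacitidine replicate 2 or combination replicate 1 or 3.

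**Figure D5:**
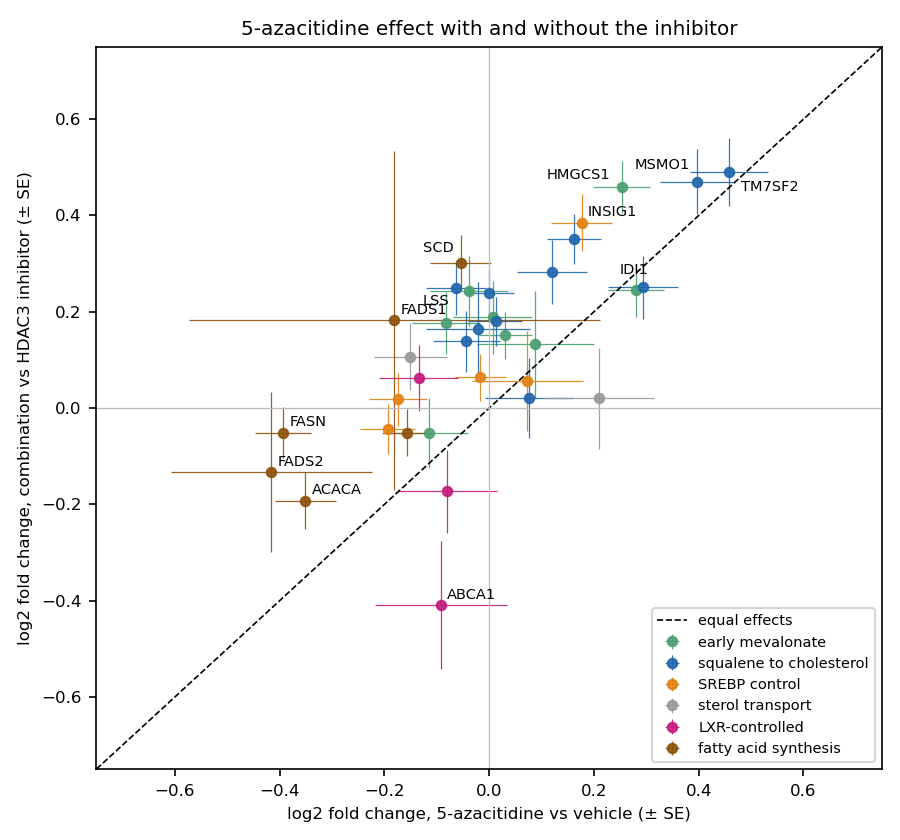
Log2 fold change (± SE) of each of the 35 genes for the combination against the inhibitor (vertical axis) and for 5-azacitidine against vehicle (horizontal axis). Points above the dashed line of equal effects have a positive interaction, as 28 of 35 do; SCD and FASN are the 2 called.

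Genes beside these pathways came from lists of related lipid genes, whose counts stand beside 29.6% higher and 27.5% lower among all genes in the combination, 26.4% and 24.9% with the inhibitor and 4.31% and 4.75% with 5-azacitidine. Of 13 genes of SREBP processing and of the control of sterol enzyme breakdown, 9 fell and 0 rose in the combination against vehicle, with a median log2 fold change of -0.19; 1 was higher at an unadjusted p under 0.05, and DESeq2 and limma voom called 1 and 0 higher. With the inhibitor 9 fell and 0 rose (0 higher at an unadjusted p under 0.05 and 0 by the other tools), with a median of -0.17. ERLIN1, of a complex that degrades membrane proteins, fell, with log2 fold changes of -0.28 in the combination (adjusted p = 0.000683) and -0.29 with the inhibitor (0.000479). With 5-azacitidine 0 of the 13 were called in either direction, by edgeR as by both other tools, and 1 was higher at an unadjusted p under 0.05.

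Of 16 tested genes of sterol uptake, trafficking and esterification, 6 rose and 6 fell in the combination and 5 rose and 6 fell with the inhibitor. These are 37.5% and 37.5% of the list in the combination, beside 29.6% and 27.5% of all genes, and 31.3% and 37.5% with the inhibitor, beside 26.4% and 24.9%; the median log2 fold changes were -0.03 and 0.10. With 5-azacitidine 3 fell (18.8%, beside 4.75% of all genes) and 0 rose, with 1 higher at an unadjusted p under 0.05 and 0 by the other tools. The largest changes were of LRP1, an endocytic lipoprotein receptor, at 17.6 ± 2.66 CPM in the combination, 15.7 ± 1.36 with the inhibitor, 4.23 ± 0.290 with 5-azacitidine and 4.27 ± 0.694 in vehicle (SD, n = 3 each). Its log2 fold change was 2.04 ± 0.12 (adjusted p = 1.26e-13) in the combination and 1.87 ± 0.12 (1.41e-12) with the inhibitor. NPC2, the partner of NPC1 in lysosomes, rose by 0.97 in the combination (2.77e-12), and GRAMD1C, a sterol transfer protein, by 1.56 with the inhibitor (4.04e-10). LRP8, a lipoprotein receptor, fell, with -0.79 in the combination (6.7e-11) and -0.55 with the inhibitor (6.33e-08). GRAMD1A, another sterol transfer protein, was lower in each drug group, at -0.66 (2.96e-09) in the combination, -0.47 (1.43e-06) with the inhibitor and -0.34 (0.00104) with 5-azacitidine. SCARB1, the receptor for high-density lipoprotein, fell by 0.41 with 5-azacitidine (2.14e-06).

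Of 6 tested genes of the LXRs and their partners, 1 rose and 2 fell in the combination and with the inhibitor (16.7% and 33.3% each time, beside 29.6% and 27.5% of all genes in the combination and 26.4% and 24.9% with the inhibitor), with median log2 fold changes of -0.06 and -0.04. NR1H3, one of the LXRs, fell, with -0.40 in the combination (0.00380) and -0.35 with the inhibitor (0.0114); NR1H2, the other, was -0.20 (0.0168) and -0.06 (0.540). PLTP, a phospholipid transfer protein and LXR target, rose by 0.51 (0.000179) in the combination and 0.52 (0.000186) with the inhibitor. RXRA, the partner of the LXRs, fell by 0.56 with the inhibitor (0.00917) and had -0.14 in the combination (0.504).

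Of 17 tested genes of fatty acid elongation and activation, 9 rose and 2 fell in the combination (52.9% and 11.8%, beside 29.6% and 27.5% of all genes) and 7 rose and 2 fell with the inhibitor (41.2% and 11.8%, beside 26.4% and 24.9%). The median log2 fold changes were 0.16 and 0.09. ELOVL6, an elongase of saturated fatty acids, rose by 0.49 in the combination (1.03e-07) and 0.65 with the inhibitor (9.4e-10), and FADS3, of the desaturase family, by 0.76 (1.14e-09) and 0.63 (5.14e-08). ACSL5, which activates long-chain fatty acids, fell, with -0.42 (8.4e-07) and -0.45 (4.52e-07), as did HACD3, a dehydratase of elongation, with -0.24 (0.00114) and -0.28 (0.000200). With 5-azacitidine none of the 17 was called by edgeR, DESeq2 or limma voom, and 2 were higher at an unadjusted p under 0.05. Of the 7 genes of mitochondrial fatty acid synthesis, a separate route, 4 rose and 1 fell in the combination (57.1% and 14.3%, beside the same 29.6% and 27.5%), with a median log2 fold change of 0.23. HSD17B8, a reductase of that route, rose by 0.82 in the combination (3.3e-07) and 0.67 with the inhibitor (9.95e-06).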

How the data were processed

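Messenger RNA of 12 libraries was measured. The deposited values are expected counts per gene: per the file headers, featureCounts 2.1.1 counted over exons of the Ensembl release 114 annotation of GRCh38, splitting multi-mapped reads into fractions, without strand and leaving out reads over more than 1 gene. The header does not settle if counts are reads or read pairs. Per the submitters' processing notes, the tools named include STAR 2.7.11b and cutadapt 5.1; bcl2fastq 2.17.1.14, FastQC 12.1 and Subread 2.1.2 are also named. The exonic length per gene deposited by the authors was used for per-kilobase levels. Whole numbers, within 1e-06, made up 96.9% of values, and 61461 of 78892 genes matched a symbol.

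Counts were rounded to whole numbers and tested in R 4.3.3 with edgeR 4.0.16 (filterByExpr, which left 17869 genes, TMM, quasi-likelihood F-test, two-sided, 1 mean per group over all 12 libraries), with p-values adjusted by Benjamini-Hochberg across the genes of each comparison and calls at an adjusted p under 0.05. The biological coefficient of variation was 6.05%. The SE is the size of the log2 fold change divided by the square root of F. Alternatives were DESeq2 1.42.0, limma voom (limma 3.58.1), DESeq2 size factors, library totals only, no low-count filter, a filter of 5 CPM in 3 libraries, only the groups compared, replicate blocks, leaving out each library, and leaving out 5-azacitidine replicate 1 and combination replicate 3 together. The pipeline was tested on simulated data. Intervals and spreads cover counting and these libraries only.

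The members, lists and rules were chosen with earlier results of these data known. Values in every library are given for the 3 or 4 called members of smallest adjusted p in each direction of a comparison, every member called in the interaction, and the SREBP control and LXR-controlled genes; from other lists, the 2 of smallest adjusted p in each direction against vehicle, of which some are not reported here. STARD4 was added after its values were seen. Python 3.11.15, numpy 2.4.6, pandas 2.3.3 and matplotlib 3.10.9 were used.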

Additional observations from a re-analysis of the deposited data

Results flagged for a closer look

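For 2 of the 35 genes the 5-azacitidine effect differed between cells with and without the inhibitor by the edgeR interaction term. Neither call held with every library left out in turn. The SCD call was lost without any 1 of 10 libraries (adjusted p from 0.0548 to 0.124). The FASN call was lost without any 1 of 9 (0.0565 to 0.0923). SCD had an interaction of 0.36 ± 0.08 on the log2 scale (SE, adjusted p = 0.0338): the combination averaged 691 ± 51.7 CPM and the inhibitor 564 ± 23.1 CPM, and 5-azacitidine 489 ± 19.0 CPM and vehicle 507 ± 18.8 CPM (SD, n = 3 each). FASN had 0.34 ± 0.07 (0.0250): the combination averaged 363 ± 32.7 CPM and the inhibitor 378 ± 6.99 CPM, and 5-azacitidine 424 ± 27.7 CPM and vehicle 555 ± 12.2 CPM. Mitochondrial transcripts took 12.5% to 15.3% of counts in the combination, 12.14% to 13.02% with the inhibitor, 10.0% to 13.8% with 5-azacitidine and 9.59% to 10.5% in vehicle. Without combination replicate 3 and 5-azacitidine replicate 1, the highest libraries, the FASN interaction was 0.30 (adjusted p = 0.0653), while SCD stayed called. The FASN call was also lost without any 1 vehicle replicate, so its loss here is not a test of the mitochondrial share. The part of that share in these results was not tested.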

How the results depend on the processing

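No call of the 35 genes reversed its direction under any alternative tried. Counts of calls held within 1.5 times their value under the alternatives that leave out no single library, except the following, whose cause was not tested. With the inhibitor, 4 genes fell in place of 7 under the 5 CPM filter. That filter moved the log2 fold changes of all shared genes up by a median of 0.074 with the inhibitor. The median shift was 0.081 in the combination against vehicle and 0.070 against 5-azacitidine. It was 0.011 with 5-azacitidine against vehicle and 0.0067 for the combination against the inhibitor. With 5-azacitidine, 3 fell in place of 5 under DESeq2 size factors, no low-count filter or the block on library-name numbers. For the combination against the inhibitor, the 1 gene that fell was 0 under library totals only, only the groups compared or the same block, and 2 under DESeq2 or with 5-azacitidine replicate 1 and combination replicate 3, the libraries highest in mitochondrial transcripts, left out together. In the interaction, 2 genes rose in the fit reported, 1 under library totals only or without those 2 libraries, and 4 under DESeq2; over all genes 128 were called, 314 without a low-count filter, 204 under the 5 CPM filter, 388 by DESeq2 and 227 with the block on library-name numbers.

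With each library left out in turn, the genes that fell with 5-azacitidine numbered 2 to 5 and all genes called 1017 to 1980. For the combination against the inhibitor, members that fell numbered 0 to 2 and all genes called 690 to 1848. In the interaction, members higher numbered 0 to 4 and all genes called 35 to 689. The genes that rose in the combination against vehicle numbered 19 to 22, and 4 fell each time.

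Libraries with the same replicate number, in the titles or in the library names, had weakly correlated deviations. Over 18 and 13 pairs, the correlations ran from -0.0591 to 0.0665 and from -0.0342 to 0.0665. Under each numbering, 6 of 12 libraries correlated best with their own number. With so few libraries, this check cannot exclude that the numbers mark paired samples. A block on library-name numbers changed the calls over all genes from 1312 to 1652 for the combination against the inhibitor. With 5-azacitidine against vehicle they went from 1619 to 1457. With a replicate block on title numbers, 21 of the 35 genes rose in the combination against vehicle, and 20 with a block on library-name numbers. With the block on library-name numbers, calls were lost for CYP51A1 in the combination (0.0521), MVK and ACACA against the inhibitor (0.0569 and 0.105) and SCAP, SQLE and SREBF1 with 5-azacitidine (0.0727, 0.0514 and 0.133), and gained for PMVK with the inhibitor (0.0253; 0.0201 with title numbers) and LSS in the interaction (0.0310). At this depth, an adjusted p above 0.05 does not show that a gene did not change. FADS1 and FADS2, under about 5 CPM, had the widest errors.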

Other observations

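Lipid genes further from these pathways were also measured, from lists chosen with earlier results of these data known. Of 14 tested genes of glycerolipid assembly, 7 rose and 5 fell in the combination against vehicle (50% and 35.7%, beside 29.6% and 27.5% of all genes), and 6 rose and 5 fell with the inhibitor (42.9% and 35.7%, beside 26.4% and 24.9%). The median log2 fold changes were 0.09 and 0.08. LPIN1, a phosphatidate phosphatase, rose by 0.68 on the log2 scale in the combination (adjusted p = 9.98e-11) and 0.58 with the inhibitor (2.67e-09), and DGAT2, which makes triglyceride, by 0.62 in the combination (1.8e-06). PCYT2, of phosphatidylethanolamine synthesis, fell, with -0.61 in the combination (4.48e-09) and -0.59 with the inhibitor (1.42e-08), as did GPAM, the mitochondrial glycerol phosphate acyltransferase, with -0.65 in the combination (3.03e-07), and CHKA, choline kinase, with -0.58 with the inhibitor (7.45e-07). With 5-azacitidine GPAT4, an acyltransferase, rose by 0.28 (0.000689), and it rose by 0.25 with the inhibitor (0.000220); AGPAT3, also an acyltransferase, fell by 0.24 with 5-azacitidine (0.00960).

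Of 18 genes of fatty acid oxidation, 7 rose and 5 fell in the combination (38.9% and 27.8%, beside 29.6% and 27.5% of all genes) and 4 rose and 7 fell with the inhibitor (22.2% and 38.9%, beside 26.4% and 24.9%), with median log2 fold changes of 0.07 and -0.03. With 5-azacitidine none was called by edgeR, DESeq2 or limma voom, and 1 was higher and 2 lower at an unadjusted p under 0.05. CPT1A, which admits fatty acids to mitochondria, rose by 0.55 in the combination (1.2e-07) and 0.38 with the inhibitor (4.13e-05), CPT2, its partner, by 0.31 with the inhibitor (0.00356), and ACADVL, a dehydrogenase of long chains, by 0.29 in the combination (0.000157). ACADM, a dehydrogenase of medium chains, fell, with -0.40 in the combination (1.84e-06), as did ACAA1, a peroxisomal thiolase, with -0.42 with the inhibitor (6.38e-05). Of 15 genes of the isoprenoid branches, 1 rose and 7 fell in the combination (6.67% and 46.7%, beside 29.6% and 27.5% of all genes) and 2 rose and 6 fell with the inhibitor (13.3% and 40.0%, beside 26.4% and 24.9%), with a median log2 fold change of -0.13 in both. CHML, a Rab escort protein, rose by 0.36 in the combination (0.00539) and 0.54 with the inhibitor (0.000121). PDSS1 and DHDDS, prenyl chain synthases, fell in the combination, with -0.35 (0.000138) and -0.27 (0.000689), and ZMPSTE24 and ICMT, which finish prenylated proteins, were at -0.20 (0.00757) and -0.16 (0.00872) with the inhibitor. PDSS2 fell by 0.33 with 5-azacitidine (0.00205).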
